A study of Mus musculus with 3 samples.

Results

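The circRNAs described here come from 5 host genes of lipid metabolism, St3gal5, St6galnac3, Acaca, Pcyt1a and Nmt1. They were taken from the profile of plasma exosomes by host gene name, and each host gave 1 circRNA, so that 5 of the 563 circRNAs in the profile are members. The remaining circRNAs bring the profile to 459 host genes, of which 387 (84.3%) also gave a single circRNA. The animals were male C57BL/6 mice of wild type genotype. Normal mice ate basic forage, model mice were made diabetic by weeks of high-fat feeding followed by streptozotocin (STZ), which kills islet β cells, and model + EA mice were model mice given electroacupuncture (EA) at the Zusanli and Pishu points. STZ was given again to mice whose blood glucose stayed below the limit set for the model, and age was not given in the sources used here. One exosome library was sequenced for each group, and pooling of animals was neither stated nor denied.

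The libraries are called A1, B1 and C1, after the column heads of the deposited profile, because the sources do not assign them to the same groups. By the sample titles, A1 is the normal, B1 the model and C1 the model + EA library. In the comparisons of the paper, the same columns stand for the model (A1), the model + EA (B1) and the normal (C1) group. The deposited files alone cannot settle which is right, and other measurements of the paper were not used here. The groups below follow the titles, and the other reading is given beside each comparison. All of these circRNAs were among those listed as different by the paper's comparisons of the same libraries, and these hosts were chosen with such results known, so the direction in which they differ is not independent evidence.

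In a circular RNA the 3′ edge of an exon has been joined to a 5′ edge that lies at or before it in the gene, and a read across this back-splice junction counts the circle and not the linear messenger RNA. Gangliosides are membrane lipids built from ceramide, sugars and sialic acid. St3gal5 encodes GM3 synthase, which adds the first sialic acid to lactosylceramide, and St6galnac3 encodes a sialyltransferase that adds a further sialic acid to more complex gangliosides. Acaca encodes acetyl-CoA carboxylase, the enzyme of the committed step of fatty acid synthesis. Pcyt1a encodes the alpha form of CTP:phosphocholine cytidylyl transferase, which controls the rate of phosphatidylcholine synthesis. Nmt1 encodes an N-myristoyltransferase, which attaches the fatty acid myristate to proteins and so uses a lipid rather than making one. The measured circles are not a measure of these enzymes or of their lipids.

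All 5 circles ran from exon edge to exon edge of an annotated transcript on mm10 (GENCODE M21), and in each the spliced length equalled the length predicted by the authors. The junction is what every read reported here crosses, so the 40 bases around it are shown for 4 of the circles on the transcribed strand, 20 from the end of the last exon in lower case and 20 from the start of the first exon in capitals. None of the 141767 GENCODE transcripts holds any of these runs in a linear order. The positions are chr6:72128264-72132163 on the plus strand for circSt3gal5, chr3:153411462-153411871 on the minus strand for circSt6galnac3, and chr11:84193079-84195687 (Acaca), chr16:32462001-32463182 (Pcyt1a) and chr11:103046379-103055289 (Nmt1) on the plus strand.
circSt6galnac3 junction: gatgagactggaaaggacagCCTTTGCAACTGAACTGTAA
circAcaca junction: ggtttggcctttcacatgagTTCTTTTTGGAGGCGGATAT
circPcyt1a junction: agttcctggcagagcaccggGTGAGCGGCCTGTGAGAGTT
circNmt1 junction: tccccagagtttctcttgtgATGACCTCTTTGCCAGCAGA

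circSt3gal5 joins exon 3 back to exon 2 of 7 and is 236 nt long. Its first exon carries the start codon of the annotated transcript, so the circle holds the codons for residues 1 to 78 of 387. circSt6galnac3 is a single exon, exon 3 of 5, which is closed on itself. It is 410 nt long, and its bases encode residues 72 to 208 of 305, that is 44.8% of the coding sequence of the host.

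circAcaca joins exon 3 back to exon 2 of 56 and is 297 nt long. In the principal transcript 73 of these bases are 5′ UTR and 224 are coding. Its coding part is shown with the start codon in capitals, since this circle also carries the start of its host's protein (residues 1 to 75 of 2345).
circAcaca, coding part: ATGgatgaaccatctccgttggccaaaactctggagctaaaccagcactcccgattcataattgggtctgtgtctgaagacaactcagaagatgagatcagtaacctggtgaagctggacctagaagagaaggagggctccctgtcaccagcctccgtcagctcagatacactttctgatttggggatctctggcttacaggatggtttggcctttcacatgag
Because the circle's length is a multiple of 3, the frame is the same on every lap, and read from this start codon it met no stop. The frame is a property of the sequence, and no protein was measured.

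circPcyt1a joins exon 5 back to exon 4 of 9 and is 269 nt long, all of it coding (residues 73 to 162 of 367). In the reading frame of the host it holds 1 copy of the histidine-X-glycine-histidine (HXGH) signature of the cytidylyl transferases, at residues 89 to 92. The circle is shown with these codons, bases 48 to 59, in capitals.
circPcyt1a: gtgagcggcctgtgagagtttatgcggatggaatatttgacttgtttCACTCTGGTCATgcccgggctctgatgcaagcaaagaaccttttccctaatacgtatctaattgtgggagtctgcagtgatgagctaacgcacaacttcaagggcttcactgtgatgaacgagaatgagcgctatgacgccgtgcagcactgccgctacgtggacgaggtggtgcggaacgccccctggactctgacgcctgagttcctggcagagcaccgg
circNmt1 joins exon 5 back to exon 3 of 12. It is 356 nt long and encodes residues 81 to 199 of 496.

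**Figure D1:**
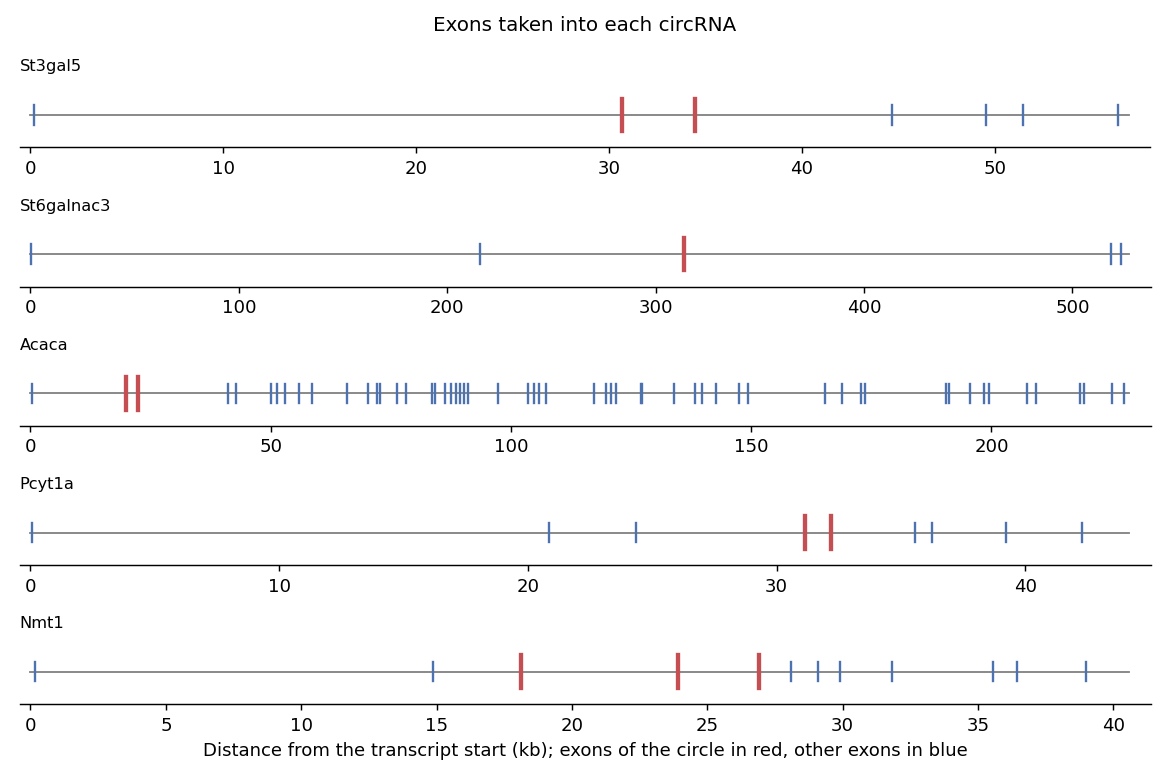
Exons of the host transcript of each circRNA by distance from the transcript start (kb, 1 scale per gene), with exons in the circle in red and other exons in blue. The circles take 1 to 3 internal exons, and the circle of Acaca takes exons 2 and 3 of 56.

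The members were mostly shorter than other circles of the profile. Among 462 circRNAs whose ends lie on exon edges of 1 transcript, the median spliced length was 376 nt (quartiles 277 and 578), against 236 to 410 nt and a median of 297 nt in the 5 members. They held a median of 2 exons against 3 overall. A single-exon circle such as circSt6galnac3 was found for 37 of 462 (8.01%). The circle began at exon 2 in 2 members, St3gal5 and Acaca, and in 176 of 462 circRNAs (38.1%). The introns beside circSt6galnac3 were the longest of the members, with 97431 nt upstream and 204736 nt downstream, and those beside circNmt1 the shortest, with 3102 and 1093 nt. The medians over the profile were 8806 and 5955 nt. GC content ranged from 45.8% (Acaca) to 54.3% (Pcyt1a), against a median of 45.6%. All 5 members carried an identifier from an earlier database, against 343 of 563 circRNAs (60.9%), and for 4 of them it came from circBase, against 122 of 563 (21.7%). The circle of Pcyt1a is the exception. With 5 members these are descriptions only.

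Junction reads added up to 4125 in A1, 4372 in B1 and 2913 in C1. Reads were found for 157 circRNAs in A1, 140 in B1 and 320 in C1, and a detected circRNA had a median of 25, 33.5 and 7 reads. For scaling, the factors of the authors were used (1.28 for A1, 1.03 for B1 and 1.00 for C1), and calls were made for each pair of libraries at the methods' threshold of a 2-fold difference in either direction, with 0.1 reads standing for 0. The 95% intervals given are exact for the error of counting alone and treat reads as independent. PCR copies are not independent molecules, so these intervals can be too narrow. With 1 library per group there is no spread between animals, no test across samples and no p-value. Fewer cells of a type and less RNA per cell cannot be told apart in plasma. For a count of 0 a floor of 3 reads was set, or 0.0727% of the reads of A1, 0.0686% of B1 and 0.103% of C1. The exact 95% interval of 0 reads ends higher, at 3.69 reads. Folds set against the floor are therefore less cautious than the exact intervals given beside them.

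All 5 lipid-gene circRNAs had reads in library B1, and none had a read in A1. circSt3gal5 had 0 reads in A1, 42 in B1 and 10 in C1. circSt6galnac3 had 0 reads in A1, 6 in B1 and 3 in C1. circAcaca, circPcyt1a and circNmt1 had 16, 37 and 92 reads in B1 and 0 in both other libraries. The ganglioside genes were thus the only members with reads in C1.

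**Figure D2:**
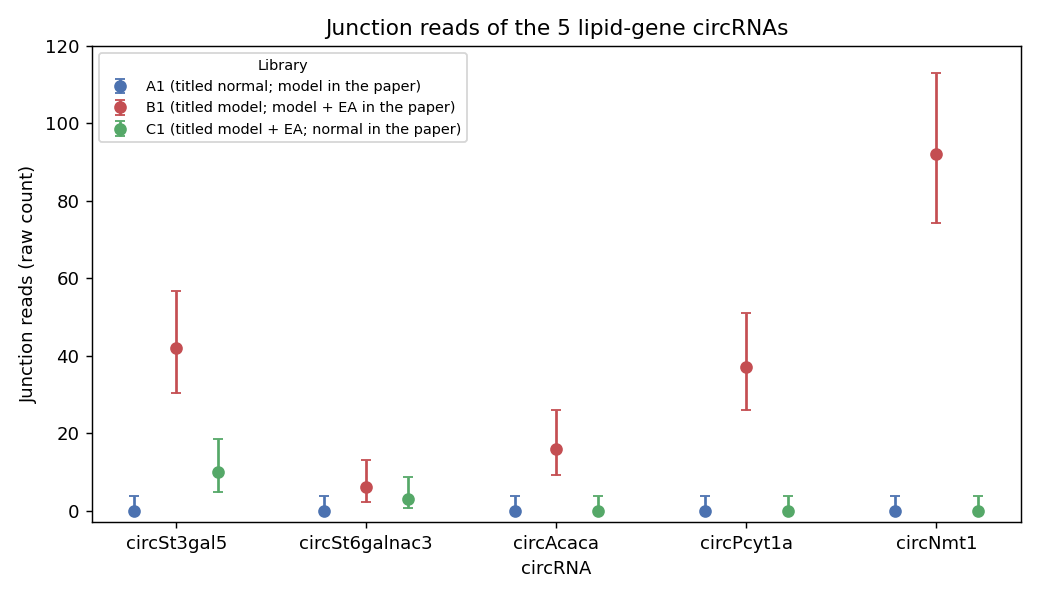
Junction reads (raw counts, y axis) of the 5 circRNAs in libraries A1, B1 and C1, with exact 95% Poisson intervals for counting error as bars. Library B1 holds the highest count of every circRNA, from 6 (circSt6galnac3) to 92 (circNmt1), and A1 holds 0 of each.

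Together the members held 193 of the junction reads of B1, a share of 4.41% (exact Clopper-Pearson interval 3.82% to 5.07%). They held 13 reads in C1, or 0.446% (0.238% to 0.762%), and 0 in A1. By number, the members were 3.57% of the circRNAs detected in B1 and 0.625% of those detected in C1. circNmt1 alone made up 2.10% of B1 (1.70% to 2.57%), and without it the other members held 2.31%. circSt3gal5 held 0.961% of B1 (0.693% to 1.3%) and 0.343% of C1 (0.165% to 0.630%), so its share was lower in C1 and the intervals did not overlap. circSt6galnac3 held 0.137% of B1 (0.0504% to 0.298%) and 0.103% of C1 (0.0212% to 0.301%), and here the intervals overlapped almost entirely.

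Within B1 the members spread over the whole range of detected circRNAs. circNmt1 had the most reads of all 140. circSt3gal5 ranked 30 and circPcyt1a ranked 51, both above the median of 33.5 reads. circAcaca ranked 112 and circSt6galnac3 ranked 130, both below it. In the order of reads, circNmt1 stood above circSt3gal5 by a ratio of 2.19 (exact interval 1.5 to 3.24). circSt3gal5 and circPcyt1a did not differ beyond counting error (ratio 1.14, interval 0.712 to 1.82). circPcyt1a stood above circAcaca (2.31, 1.26 to 4.45), while the interval for circAcaca over circSt6galnac3 just included 1 (2.67, 0.991 to 8.32). Each circle is counted at a single junction, so its length does not enter these ratios. In C1, circSt3gal5 ranked 99 of 320 and circSt6galnac3 ranked 256, among 40 circRNAs with 3 reads, and their interval included 1 (ratio 3.33, 0.858 to 18.8).

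**Figure D3:**
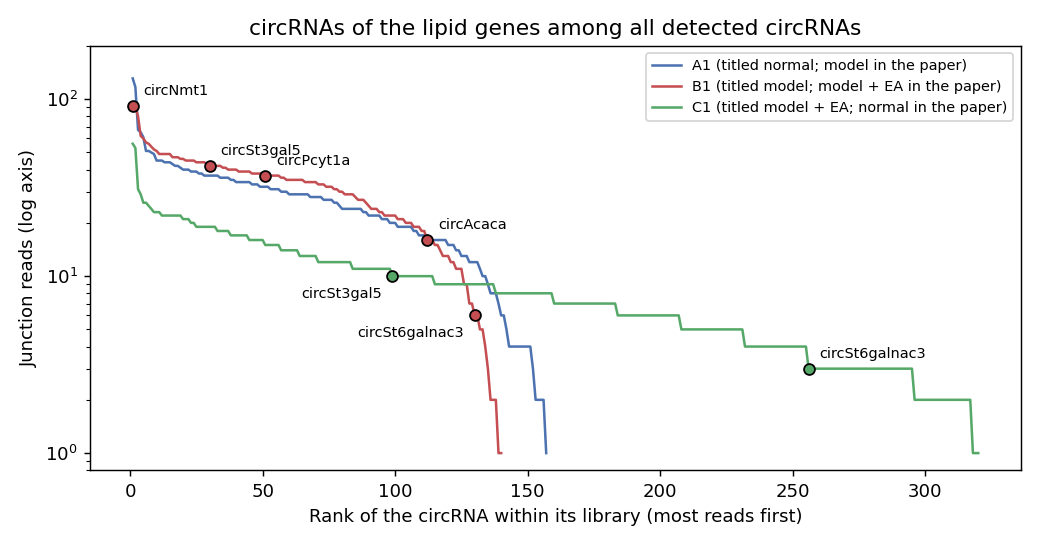
Junction reads (log axis) of all detected circRNAs of each library against their rank within the library (most reads first), with the members marked in B1 and C1. In B1 the members stand at ranks 1, 30, 51, 112 and 130 of 140.

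The first comparison sets B1 against A1, which is model against normal by the titles and model + EA against model in the comparisons of the paper. All 5 circRNAs were higher in B1 by the 2-fold rule, and so were 22.6% of all 563, while 25.9% were lower. Only a circRNA with reads in B1 can be higher there. Of the 140 with such reads, 127 were higher, so the members did as most of them did. Since A1 had 0 reads of each member, folds are bounds computed against 3 reads, with the reads of B1 taken as exact. circNmt1, of the myristoyltransferase, was at least 24.9-fold higher in B1, circSt3gal5, of GM3 synthase, at least 11.4-fold and circPcyt1a, of the phosphocholine enzyme, at least 10.0-fold. circAcaca was at least 4.33-fold higher, and circSt6galnac3, with 6 reads, at least 1.62-fold. Counting error on both sides widens this, and the exact interval of the ratio began at 19.8 for circNmt1, 8.84 for circSt3gal5, 7.74 for circPcyt1a, 3.13 for circAcaca and 0.955 for circSt6galnac3. Thus 4 of the 5 lay beyond 2-fold higher with their whole interval, as did 20.4% of all circRNAs, while 22.6% lay beyond 2-fold lower. Those higher were 115 circRNAs, all among the 140 with reads in B1. The interval of circSt6galnac3 included 1 with the authors' factors. It began at 1.18 unscaled, at 1.11 by total junction reads and at 1.39 by TMM, so this depended on the scaling. With 3 reads in place of 0, the median log2 ratio of the members was 3.32. That over all circRNAs, -0.30, equals the ratio of the factors, as for any circRNA with 0 reads in both libraries, and is no measure of the profile.

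The second comparison sets C1 against B1, which is model + EA against model by the titles, while in the paper's comparisons B1 against C1 is model + EA against normal. All 5 circRNAs were lower in C1 by the 2-fold rule, against 23.1% of all circRNAs, and 51.7% of all were higher. Only a circRNA with reads in B1 can be lower in C1. Of the 140 with such reads, 130 were lower, so the members again did as most did. The share higher depended on low counts. With 3 reads in place of 0, 29.8% of all were higher and 22.4% lower, and by the exact interval 17.9% and 20.1%. circSt3gal5 had reads in both libraries and was 4.35-fold lower in C1 (exact interval 2.15 to 9.72). This value depended on the scaling, since it was 2.80-fold (1.38 to 6.25) by total junction reads and 2.05-fold (1.01 to 4.57) by TMM. circSt6galnac3 was 2.07-fold lower, but from 6 and 3 reads, and its interval ran from 0.442 to 12.8. It lay on the threshold, and scaling by total junction reads or by TMM ended the call, TMM with a log2 ratio of 0.04. circNmt1 was at least 31.7-fold lower in C1, circPcyt1a at least 12.8-fold and circAcaca at least 5.52-fold, against 3 reads with those of B1 taken as exact. With counting error on both sides, their intervals began at 25.3, 9.87 and 3.99. The exact interval lay beyond 2-fold lower for 4 of 5 members, again without circSt6galnac3, and for 20.1% of all circRNAs. By total junction reads it did so for 3 members, without circSt3gal5, and for 18.7% of all circRNAs. By TMM it did so for 2 members, circPcyt1a and circNmt1, and for 16.2% of all. By total junction reads and by TMM, 29.3% and 33.7% of all circRNAs lay wholly beyond 2-fold higher. The median log2 ratio of the members with 3 reads in place of 0 was -2.46, and that over all circRNAs, -0.05, was again the ratio of the factors.

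**Figure D4:**
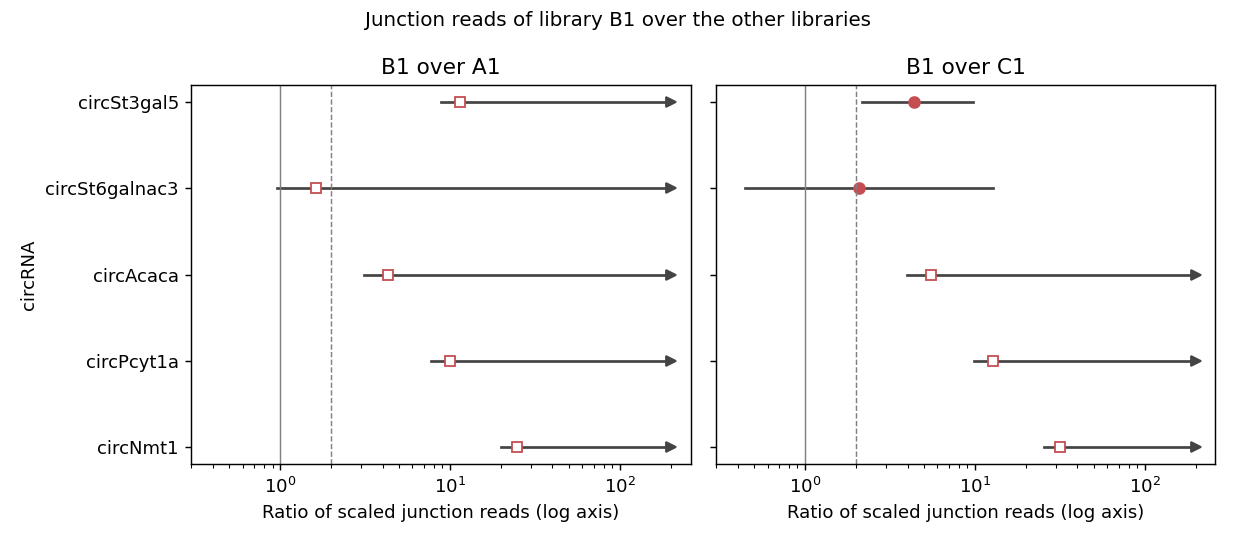
Ratio of scaled junction reads of B1 over A1 (left) and over C1 (right) on log axes. Filled points are ratios of measured reads, open squares are ratios against 3 reads where the other library had 0, lines are exact 95% intervals (arrows have no upper end), and the dashed line is 2-fold. The lines of all circRNAs but circSt6galnac3 lie beyond 2-fold in both panels with the authors' factors.

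The third comparison sets C1 against A1, which is model + EA against normal by the titles, and whose reverse is model against normal in the paper's comparisons. circSt3gal5 and circSt6galnac3 were higher in C1 by the 2-fold rule, against 53.6% of all circRNAs, while 0 members and 27.0% of all were lower. circSt3gal5, with 10 reads against 0, was at least 2.61-fold higher against 3 reads, with those of C1 taken as exact. With counting error on both sides, its exact interval began below 2-fold, at 1.76. circSt6galnac3 had 3 reads against 0, both within the floor, so no fold is given. The other members had no read in either library and could not be compared. With 3 reads in place of 0 or with at least 10 reads required, circSt3gal5 alone was called, beside 26.3% and 18.5% of all circRNAs. With at least 20 reads, or the exact interval with the authors' factors, 0 members were (3.91% and 13.0% of all). The exact interval of circSt3gal5 lay beyond 2-fold unscaled (from 2.24), by total junction reads (3.17) and by TMM (5.44). So did those of 18.3%, 30.6% and 38.7% of all circRNAs, while 21.8%, 20.6% and 16.2% lay beyond 2-fold lower.

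Few circRNAs of the profile were shared between libraries, and the members followed the 2 patterns that include B1 and lack A1. Most circRNAs had reads in 1 library alone, 135 in A1, 105 in B1 and 280 in C1. Of the 140 detected in B1, 105 thus had reads there alone, so this pattern is not particular to the members. circAcaca, circPcyt1a and circNmt1 were among 105 circRNAs (18.7%) with reads in B1 alone, and circSt3gal5 and circSt6galnac3 among 21 (3.73%) with reads in B1 and C1. Among circRNAs with reads in the same set of libraries as a member, those with the most similar counts were found by the sum of the absolute differences in reads. There were 19 candidates for the ganglioside genes and 101 for the others, and circRNAs with another set of libraries were not searched. For circPcyt1a, circRNAs of Reep3, Ralgapa2 and Anp32b had the same 37 reads in B1 and 0 elsewhere. circNmt1 had no close match, the nearest being the circRNA of Slc16a10, a transporter, with 80 reads in B1. circAcaca was nearest to those of Ahnak and Ist1 (15 reads each) and Zfp207 (18 reads). Those nearest to circSt3gal5 came from Map4k5 (42 reads in B1 and 4 in C1), Zcchc8 (42 and 3) and Btaf1 (34 and 10). circSt6galnac3 was nearest to those of Paip2 (1 and 5), Tulp4 (11 and 7) and Plcl2 (11 and 9).

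Other genes of the same pathways were looked up, and the share of genes at large that give a circRNA was not computed. Of 165 further genes of sphingolipid, fatty acid and phospholipid synthesis and of protein lipidation, 8 hosts gave 9 circRNAs, with reads for 3 in A1, 2 in B1 and 5 in C1. In B1 against A1, 1 of the 9 was higher and 3 were lower, beside 22.6% and 25.9% of all circRNAs. In C1 against B1, 5 were higher and 2 lower (51.7% and 23.1% of all), and in C1 against A1, 5 were higher and 3 lower (53.6% and 27.0% of all). A difference of the lists from the profile or from the members was not tested, and with 9 circRNAs these counts are descriptions only. Among 46 sphingolipid genes, St3gal6, a sialyltransferase of the same family as St3gal5, gave a circRNA with 24 reads in A1 and 0 in B1 and C1. Sptlc2, a subunit of the enzyme that starts sphingolipid synthesis, had 2 reads in C1 alone. Among 43 fatty acid genes only Mecr, an enzyme of mitochondrial fatty acid synthesis, gave a circRNA, with 35 reads in A1 alone, where circAcaca had 0.

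Among 42 phospholipid genes, Lpin2, a phosphatidate phosphatase, gave 2 circRNAs of the same host in different libraries. That at chr17:71222055-71225241 had 33 reads in B1 alone, as circAcaca, circPcyt1a and circNmt1 did, and that at chr17:71230272-71231519 had 16 reads in C1 alone. Mboat2, a lysophospholipid acyltransferase, had 8 reads and Cept1, which completes phosphatidylcholine and phosphatidylethanolamine, had 4, both in C1 alone. Among 34 protein lipidation genes, Metap2, which removes the first methionine of proteins that are then myristoylated, had 6 reads in C1 alone. Chm, a Rab escort protein for prenylation, had 26 reads in A1, 9 in B1 and 0 in C1.

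**Figure D5:**
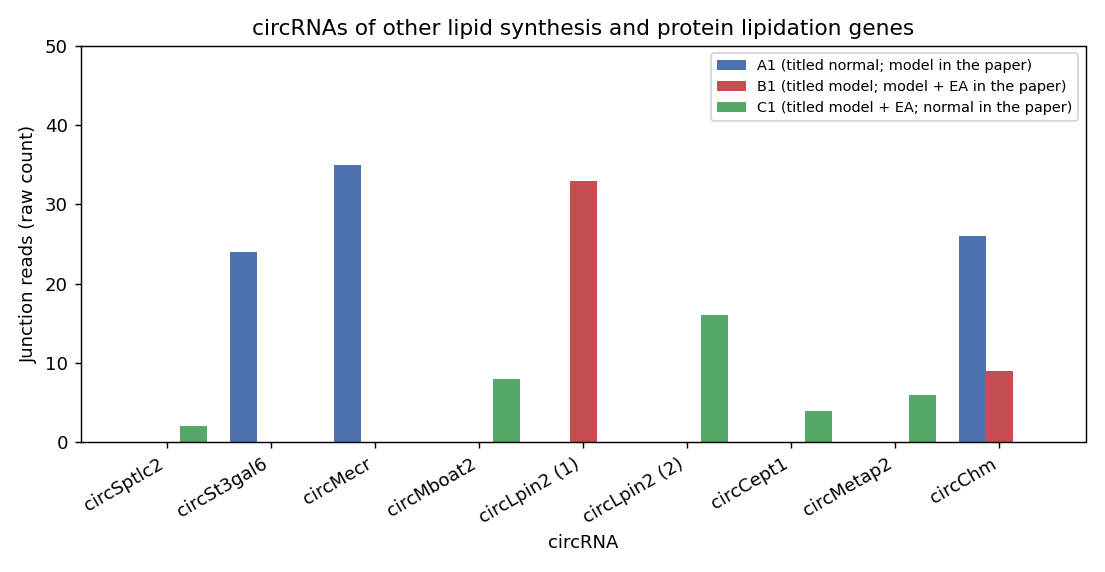
Junction reads (raw counts, y axis) in each library of the 9 circRNAs from other genes of lipid synthesis and protein lipidation, with both circRNAs of Lpin2 numbered in genome order. The highest bars of circSt3gal6, circMecr and circChm (24, 35 and 26 reads) are in A1, and only circLpin2 (1), with 33 reads, stands in B1 alone.

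Markers of blood and tissue cells were looked up in the same profile. Of 11 erythroid genes, 3 gave circRNAs, all of them globins and catalogued as sense overlapping rather than exonic, and their summed reads were 6 in A1, 50 in B1 and 4 in C1. Hbb-bs had 43 reads in B1 alone, Hba-a1 had 2, 2 and 1 and Hbb-bt had 4, 5 and 3 in A1, B1 and C1, while Alas2, Slc4a1 and the remaining erythroid markers had no circRNA. The higher sum in B1 therefore came almost entirely from Hbb-bs, while Hba-a1 and Hbb-bt had similar, low counts in all libraries. Reads in B1 alone were found for 105 circRNAs (18.7% of all, and most of the 140 detected in B1). A part of erythroid RNA in the results for the lipid genes was not tested. Of 9 platelet genes, Gp6 gave 37 reads in A1 alone. None of 38 markers of hepatocytes, adipocytes, islets, myeloid cells and lymphocytes had a circRNA in the profile, so the cells that released these circles could not be read from it.

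Seed matches were searched in circSt6galnac3 for 5 miRNAs taken from published predictions for it, so a match was built into the choice. A site is the reverse complement of miRNA bases 2 to 8, searched on the transcribed strand around the circle. RefSeq sequences (GRCm38.p6) were matched for all 5, and each had a site. Of these, miR-107-5p, miR-103-1-5p and miR-103-2-5p share 1 seed and therefore 1 site, at bases 221 to 227, which was found in 12% of the first 410 nt of 209 other circles. The sequence of miR-107-5p, with the seed in capitals, and the shared site, in capitals with 10 bases on either side, stand for the family.
miR-107-5p: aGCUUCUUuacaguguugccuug
its site in circSt6galnac3: tattttttcaAAGAAGCaagcaggacc
miR-670-3p had 2 sites (11% of other circles) and miR-3089-3p had 1 (2.87%). With 6 reads at most, the level of this circle gives no measure of binding, which was not assayed.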

How the data were processed

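Exosomes were isolated from plasma by differential centrifugation, and their RNA was depleted of rRNA and made into stranded libraries. Per the submitters' processing notes and the methods, reads were trimmed with cutadapt 1.9.3, aligned to mm10 with STAR 2.5.1b and searched for circRNAs with DCC. The authors deposited raw junction read counts and, as log2, a normalized value for each circRNA and library, with its position, host and predicted length. Checked against the counts, each log2 value is that of the count, or of 0.1 reads where it was 0, multiplied by a factor that is constant within a library. The origin of the factors was not stated.

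The members and the gene lists were chosen with earlier results of these data known. All circRNAs of the 5 hosts are named, with up to 3 circRNAs of other hosts most like each in reads, the genes of the lists that gave a circRNA, and examples of erythroid markers without one. Some sequences, searches that rest on them and a marker gene are not reported here. With 1 library per group, scaled counts were compared across all 563 circRNAs at the 2-fold threshold of the methods, with no test across samples. The methods set the model + EA group against both others, whereas each pair of libraries was compared here. Shares carry Clopper-Pearson intervals, and ratios an exact binomial interval from how their summed reads divide between the libraries. The code was tested on simulated data. Exons and sequences come from GENCODE M21 transcripts, and miRNAs from RefSeq. The alternatives changed the value in place of 0, the scaling, a filter on low counts, the call rule, the unit counted, the circRNAs tested or the groups. Python 3.11.15, scipy 1.17.1, pandas 2.3.3 and edgeR 4.0.16 (TMM factors only) were used.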

Additional observations from a re-analysis of the deposited data

How the results depend on the processing

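By the groups of the paper's comparisons in place of the titles, model against normal (A1 against C1) had 0 members higher and 2 lower, with log2 ratios of -6.29 for circSt3gal5 and -4.56 for circSt6galnac3. Of all circRNAs, 27.0% were higher and 53.6% lower there. Model + EA against model (B1 against A1) then had 5 higher and 0 lower (22.6% and 25.9% of all), with log2 ratios of 8.41 (St3gal5), 5.61 (St6galnac3), 7.02 (Acaca), 8.23 (Pcyt1a) and 9.54 (Nmt1). Model + EA against normal (B1 against C1) had 5 higher (23.1% of all). These log2 ratios use 0.1 reads in place of 0. By the titles, a minimum of 20 reads left 3 members higher in model against normal (17.2% of all) and 3 lower in model + EA against model (18.1% of all). In model + EA against normal, the count higher fell from 2 to 1 with 3 reads in place of 0 or a minimum of 10 reads (26.3% and 18.5% of all). It fell to 0 with a minimum of 20 reads or with the exact interval and the authors' factors (3.91% and 13.0% of all). The ratio of circSt6galnac3 turned to -0.35 there with 3 reads in place of 0, and to 0.04 in model + EA against model under TMM, which moved every log2 ratio of that comparison by 1.09 (model against normal by 0.54, model + EA against normal by 1.63). Total reads moved them by 0.64, 0.22 and 0.85 and no scaling by 0.05, 0.30 and 0.35 in the same order. Chosen after seeing the data, the count of members lower in model + EA against model with the whole exact interval beyond 2-fold was 4 with the authors' factors (20.1% of all) and 2 under TMM (16.2% of all). The members' share of B1 was 6.38% over circRNAs with an identifier and 2.31% without circNmt1.

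No paired analysis was possible because each group has 1 library. Depth limits circSt6galnac3 most, with 6, 3 and 0 reads in B1, C1 and A1. Its whole exact interval lay beyond 2-fold in no comparison under any scaling used. A count of 0 in A1 or C1 does not show that a circle was absent. The cause of the conflict between both sets of groups was not tested.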
